A study of Mus musculus with 6 samples.

Results

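The genes of fatty acid and glycerolipid synthesis were followed in muscle of mice labelled wild type or knockout for SIRT6, a NAD-dependent deacylase of chromatin. The group was chosen by name, with earlier results of these data known. It holds 40 genes that make palmitate, lengthen and desaturate it, activate it and place it on glycerol, 3 of them regulators of the enzymes. Of the 40, 39 were measured, by 92 probe sets, out of 18193 genes measured on the arrays, and Acsl1, which activates long-chain fatty acids, was not analysed here. Total RNA of muscle from mice of strain 129SvJ was read on 6 Affymetrix Mouse Genome 430 2.0 arrays. Of these, 3 were labelled wild type (WT) and 3 SIRT6 knockout (KO). The arrays are called biological replicates, and whether each holds 1 mouse is not said. The labels give no age or sex, do not say which muscle was taken, and give neither the deleted part of Sirt6 nor the cells in which it was deleted. The question is whether these transcripts differ between the labels.

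In fatty acid synthesis, citrate exported from mitochondria is cleaved to acetyl-CoA, carboxylated to malonyl-CoA and condensed on fatty acid synthase to palmitate, with NADPH as the reductant. Elongases and desaturases then turn palmitate into longer and unsaturated acids, acyl-CoA synthetases activate them, and acyltransferases of the endoplasmic reticulum add them stepwise to glycerol phosphate to form phosphatidate, diacylglycerol and triglyceride. Liver and fat are the best known sites of this pathway, and muscle fibres, which mostly burn fatty acids, also hold triglyceride droplets and use malonyl-CoA to restrain fatty acid entry into mitochondria.

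A deposited value is the intensity of a probe set, a group of short probes against the same transcript, on a linear scale. Differences are KO minus WT on the log2(intensity + 16) scale, and the probe set that was brightest on average over the 6 arrays stands for its gene. Array medians lay between 10.8 and 15, and the added hybridization controls of WT replicate 1 were 1.93 times those of WT replicate 2, against 0.975 to 1.02 times on the other 4 arrays. The log2 ratio of 3' to 5' probe sets lay between -0.302 and -0.242 for Gapdh and between -0.491 and -0.179 for Actb. The Sirt6 probe set read 23.2, 15.1 and 21.3 in WT and 22.6, 18.3 and 13.7 in KO (adjusted p = 0.947), and whether it lies in the deleted part is not known here, so WT and KO stand for the labels throughout. Xist, transcribed from the inactive X chromosome of females, read 31.3, 24.5 and 29.6 in WT and 715, 1166 and 1139 in KO (adjusted p = 0.00401), while the Y-linked Eif2s3y read 77.1, 53.9 and 44.5 in WT and 1.1, 4.1 and 2.7 in KO. Genotype and sex therefore cannot be told apart in any difference below. Muscle fibre markers, 13 of 13 measured, summed to between 65440 and 106800 in WT and between 70220 and 77830 in KO. This sum is carried by the bright fast-fibre transcripts. The slow-fibre myosin Myh7 read 168, 313 and 87.2 in WT and 420, 1860 and 281 in KO (3.39-fold higher, adjusted p = 0.582), the slow troponin Tnnt1 was 2.03-fold higher (adjusted p = 0.621), and Des, the desmin of all fibres, was 1.17-fold higher without overlap (adjusted p = 0.707). Their part in the differences below was not tested.

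Most of the synthetic genes read lower in KO. By mean difference 27 of the 39 measured members lay lower and 12 higher, or 69.2% lower against 53.2% of all genes, the share to set beside the counts of lower genes below. Without WT replicate 1, 24 of 39 lay lower, against 43.7% of all genes. Their median difference with all arrays was -0.212, a fold of 0.863, beside a median of -0.0174 and a fold of 0.988 over all genes. In 8 members every KO array lay below every WT array (Scd1, Agpat2, Mlxipl, Hsd17b12, Thrsp, Dgat2, Me1 and Elovl6), and in 0 members every KO array lay above every WT array. Over all genes 8.34% were separated downward in this way and 4.51% upward. An unadjusted p under 0.05 was reached by 8 members, the same but for Elovl6, which missed it, and Fasn, which reached it, and all 8 were lower in KO. Over all genes the shares were 6.29% lower and 3.54% higher. The plot of member differences by role shows this spread.

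**Figure D1:**
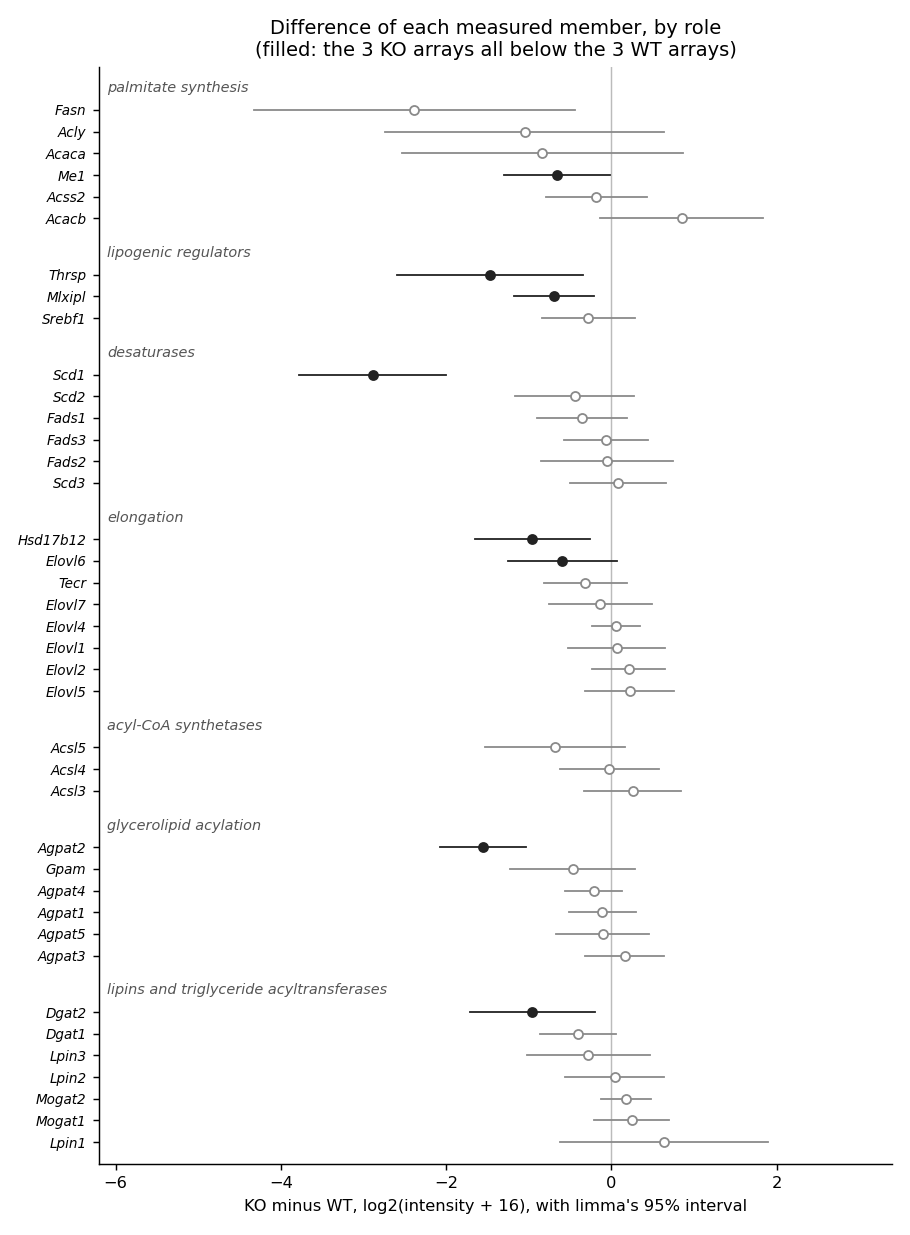
Difference of each of the 39 measured members, KO minus WT on the log2(intensity + 16) scale, with limma's 95% interval, grouped by role; filled points mark the 8 members whose 3 KO arrays all lay below the 3 WT arrays. The longest distances below 0 belong to Scd1 (-2.89), Fasn (-2.39), Agpat2 (-1.56) and Thrsp (-1.47), and the intervals of Acacb and Lpin1 above 0 both include 0.

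Adjusted over all 45037 probe sets with limma, 0 members passed the threshold of 0.05, with adjusted p-values from 0.289 to 0.992. Over the whole array 4 probe sets, or 0.00888%, passed. When the model was refitted to the 22515 probe sets whose mean lay above the median of all probe sets (12.2), 2 members passed, Scd1 (adjusted p = 5.76e-04) and Agpat2 (adjusted p = 0.0139), both lower in KO. In that refit 0.258% of the probe sets passed in the lower direction. Of the 39 measured members 35 lay above this level, and the other 4 (Elovl2, Elovl4, Lpin3 and Mogat2) were not tested in the refit. The refit also pools the spread more firmly across probe sets, with a prior of 11.8 degrees of freedom against 2.78 over all probe sets. It depended on single arrays. When KO replicate 2, WT replicate 1 or WT replicate 3 was left out, Scd1 was the 1 member that passed, among 13, 8 and 8 probe sets passing. Without WT replicate 2, 4 members passed (Fasn and Thrsp besides these), without KO replicate 1, 6 (Acacb, higher, and Fasn, Thrsp and Hsd17b12 besides) and without KO replicate 3, 7 (Acly, Acaca, Fasn, Thrsp and Dgat2 besides). In these last settings the probe sets passing the refit in either direction numbered 67, 1347 and 309, against 77 with all arrays.

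Markers of fat cells also lay lower in KO, to unequal degrees. Muscle samples can carry white and brown fat, and in bulk RNA fewer cells of a type and less RNA per cell cannot be told apart. Ucp1, the uncoupling protein of brown fat, read 877, 570 and 586 in WT and 129.9, 5.9 and 2.3 in KO, 17.5-fold lower (adjusted p = 0.00242 in the refit and 0.436 over all probe sets). Cidea, a lipid droplet protein of brown fat, read 824, 430 and 442 in WT and 164, 136 and 191 in KO (adjusted p = 0.0167 in the refit and 0.384 over all). For both genes the groups do not overlap. All 11 brown adipocyte markers were measured and lay lower in KO by mean difference, with a median of only -0.0998. Ucp1 and Cidea were the 2 without overlap, while Dio2 (-0.03) and Elovl3 (-0.01) hardly differed. The summed level of the 11 was 4976 to 8189 in WT and 4053 to 5177 in KO. Most of that sum was Cox8b and Cox7a1, respiratory chain subunits that muscle also makes, while Zic1 and Lhx8 stayed under 16 on every array.

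White fat markers lay lower too. Of 12 such markers 10 were measured, and all 10 lay lower in KO by mean difference, with a median of -0.54. The median distance of these markers from their WT mean was 0.424, -0.0995 and -0.298 on the WT arrays and -0.939, -0.4 and -0.542 on the KO arrays, without overlap. Lep, Retn, Cebpa and Nnat did not overlap between groups, though Lep was dim, at 7.1, 19.1 and 11.1 in WT and 6, 5.4 and 2.9 in KO. The summed level of the 10 markers was 3402 to 6595 in WT and 2513 to 4410 in KO, highest in WT replicate 1 and lowest in KO replicate 1. The sums, which are mostly Fabp4, thus overlap, and 0 of 10 were under 16 on all arrays. Adipoq, the adipocyte hormone adiponectin, read 607, 296 and 294 in WT and 131, 278 and 340 in KO, and Fabp4, the fatty acid binding protein of adipocytes, read 5040, 3273 and 2569 in WT and 2115, 3693 and 2951 in KO. In both the groups overlap. The part of white or brown fat in the differences of the synthetic genes was not tested.

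Among other cells, markers of fibro-adipogenic progenitors, the stromal cells of muscle that can form fat, summed to 6134 to 10320 in WT and 3079 to 6470 in KO (7 of 8 measured, 1 lower without overlap). Macrophage markers (9 of 9) summed to 426 to 738.5 and 385 to 636, with Cd163 higher without overlap (1.84-fold, adjusted p = 0.524) and Mrc1 1.75-fold lower with overlap (adjusted p = 0.564). Endothelial markers (9 of 9) summed to 556 to 706 and 626 to 964, and myelinating Schwann cell markers (7 of 10) to 332 to 542 and 453 to 921.5. Hepatocyte markers (5 of 6) summed to 56.1 to 473 in WT, highest in WT replicate 2, and 84.5 to 163 in KO. The ranges of all 5 sums overlap between the groups. Of the 5 X- and Y-linked genes looked at, 4 were measured, of which Xist lay higher and 3 lay lower in KO without overlap.

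Scd1, the stearoyl-CoA desaturase that makes oleate and palmitoleate, showed the largest difference of the group. It read 1286, 594 and 516 in WT and 116.5, 88.1 and 58.9 in KO. The lowest WT array stood well above the highest KO array, and all 3 KO arrays were low. The level was 798 ± 424 over the WT arrays and 87.8 ± 28.8 over the KO arrays (SD, n = 3 for either), 7.42-fold lower, with a log2 difference of -2.89 (interval -3.78 to -2.0). A second, dimmer Scd1 probe set read 68.9, 40 and 63.4 in WT and 19.5, 18.1 and 12.1 in KO, again with no overlap, and its difference of -1.16 missed the threshold in the refit (adjusted p = 0.06). Over all probe sets Scd1 passed when the arrays were centred on their medians (adjusted p = 0.0246) or when a trended and robust variance was used (0.00646). In the refit it passed without each array in turn, but not with an offset of 64 (adjusted p = 0.152).

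The related desaturases did not share this separation. Scd2, a stearoyl-CoA desaturase best known from brain and developing tissue, read 142, 72.8 and 84.1 in WT and 54.1, 103 and 50.5 in KO (difference -0.45, adjusted p = 0.731). KO replicate 2 exceeded 2 of the 3 WT arrays, so the groups overlap. Scd3 was dim, at 13.9 ± 4.0 in WT and 16.4 ± 10.7 in KO (difference 0.08, interval -0.505 to 0.66). Fads1 and Fads2, which desaturate polyunsaturated fatty acids, differed by -0.35 (interval -0.90 to 0.19) and -0.05 (-0.85 to 0.75), and Fads3, a relative of both, by -0.07 (-0.58 to 0.44). Among the 6 desaturases 5 thus lay lower by mean difference, with a median of -0.211, and 1 passed in the refit.

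**Figure D2:**
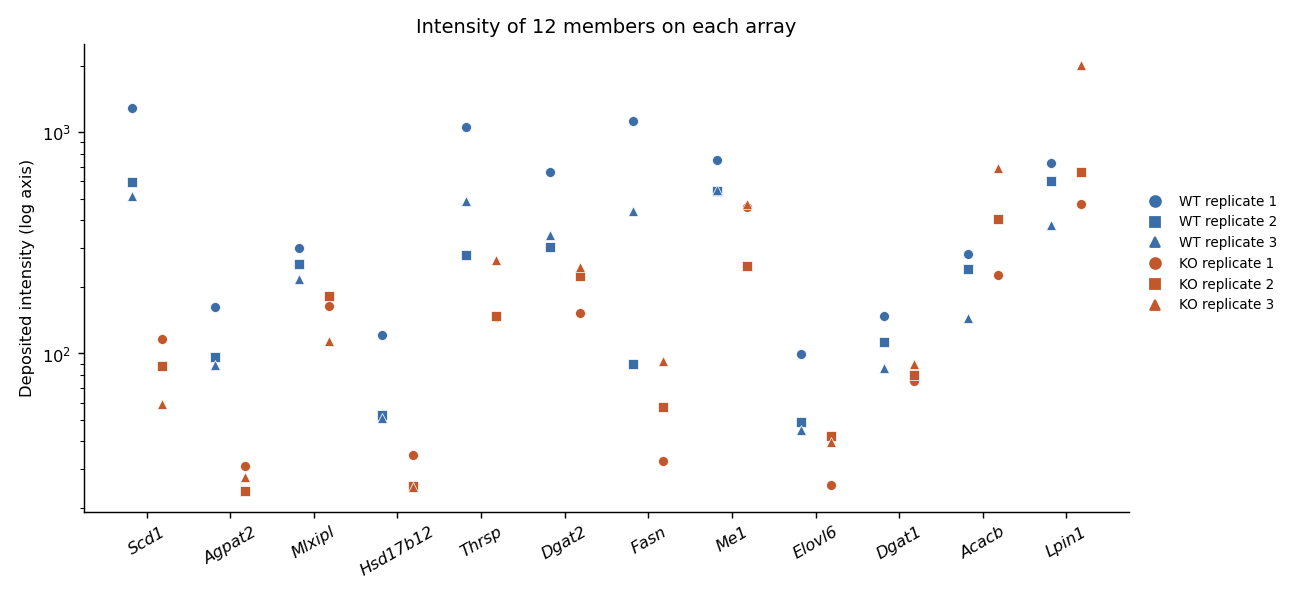
Deposited intensity (log axis) of 12 members on each of the 6 arrays, with WT in blue and KO in orange and the symbol giving the replicate number. Scd1 and Agpat2 leave a wide gap between the groups, Fasn spreads over a wide range within WT, and Lpin1 has a single high array, KO replicate 3.

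Agpat2 was the member of the glycerolipid branch that stood apart. It encodes an acyltransferase that turns lysophosphatidate into phosphatidate, is abundant in fat and is mutated in an inherited human lipodystrophy. It read 162, 96.5 and 88.9 in WT and 31, 24 and 27.6 in KO. All KO arrays lay within a narrow band below the WT arrays, and the level was 2.95-fold lower, with a log2 difference of -1.56 (interval -2.08 to -1.04). Agpat2 has only 1 probe set here. Its pass in the refit was lost without WT replicate 1 (adjusted p = 0.206), WT replicate 3 (0.0585) or KO replicate 2 (0.139), and with an offset of 1 (0.093) or 64 (0.251).

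The remaining enzymes of the first acylations did not separate the groups on their brightest probe sets. Gpam, the mitochondrial glycerol phosphate acyltransferase that starts the pathway, read 610, 773 and 480 in WT and 641, 464 and 278 in KO (difference -0.47, adjusted p = 0.73). Its KO replicate 1 exceeded 2 WT arrays, so the groups overlap, and a second probe set differed by -0.84. Among the other lysophosphatidate acyltransferases and their relatives, Agpat1 differed by -0.11, Agpat4 by -0.21, Agpat5 by -0.11 and Agpat3 by 0.16. A second Agpat4 probe set read 33.9, 28.3 and 23.9 in WT and 14.9, 19.9 and 20.1 in KO, without overlap (difference -0.38). Counting Gpam and Agpat2, 5 of these 6 genes lay lower by mean difference, with a median of -0.161.

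Palmitate synthesis had the lowest median of the role groups, -0.75, with 5 of 6 genes lower by mean difference, and also a wide spread within WT. Fasn, the fatty acid synthase itself, read 1121, 89.2 and 441 in WT and 32.5, 57.2 and 92.1 in KO. The groups overlap because WT replicate 2 lay just below KO replicate 3. Its difference was -2.39 (interval -4.33 to -0.44), a fold of 0.191 (adjusted p = 0.562 over all probe sets and 0.089 in the refit). Within WT the highest array was 12.6 times the lowest. Without WT replicate 2 the difference grew to -3.31, or 9.92-fold, and passed in the refit (adjusted p = 1.75e-04), and without WT replicate 1 the difference was -1.59, or 3.02-fold.

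Acly and Acaca, which act before Fasn, had the same order of WT arrays. Acly, which cleaves citrate to cytosolic acetyl-CoA, read 474, 57.7 and 215 in WT and 36.7, 110 and 124 in KO (difference -1.05, adjusted p = 0.727). Acaca, the acetyl-CoA carboxylase of lipogenic tissue, read 258.5, 23.5 and 102 in WT and 17.5, 57 and 75 in KO (-0.84, adjusted p = 0.797). In WT both were highest in replicate 1 and lowest in replicate 2, as Fasn and Thrsp were, and the highest WT array was 8.21 times the lowest for Acly and 11 times for Acaca. Leaving out WT replicate 1 brought them to -0.42 and -0.17, and leaving out WT replicate 2 to -1.78 and -1.57. Of the 10 white adipocyte markers measured, 3 (Retn, Lipe and Cebpa) had this order of WT arrays too and 7 did not.

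Me1, the cytosolic malic enzyme that supplies NADPH, read 746, 543 and 551 in WT and 457, 248 and 472 in KO. Its groups do not overlap and its difference was -0.66 (adjusted p = 0.58), or -0.37 without KO replicate 2. A second Me1 probe set gave -0.63. Acss2, which makes acetyl-CoA from acetate, differed by -0.18 (interval -0.79 to 0.43). Acacb, the carboxylase isoform of muscle mitochondria whose malonyl-CoA restrains fatty acid oxidation, was the exception of the group: it read 281.5, 241 and 145 in WT and 226, 405 and 692.5 in KO (difference 0.85, interval -0.13 to 1.84, adjusted p = 0.622). KO replicate 1 lay among the WT arrays and KO replicate 3 was the highest, and without it the difference was 0.47. Acly, Acaca and Acacb fall outside the rule for giving all 6 arrays and were added after their values were seen.

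All 3 regulators lay lower by mean difference, with a median of -0.70. Thrsp, a small nuclear protein of lipogenic tissues induced by thyroid hormone and carbohydrate, read 1058, 278 and 487 in WT and 146, 148 and 265 in KO. The lowest WT array was just above the highest KO array, and the difference was -1.47, 2.77-fold lower (adjusted p = 0.546 over all probe sets and 0.106 in the refit). A second Thrsp probe set read 403, 133 and 243 in WT and 78.4, 84.1 and 129 in KO, also without overlap (-1.19). Without WT replicate 2 the brighter one passed in the refit (adjusted p = 0.0205), with a difference of -1.91. Leaving out WT replicate 1 brought it to -0.98, or 1.97-fold, and it did not pass in the refit (adjusted p = 0.466).

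Mlxipl encodes ChREBP, the carbohydrate response factor that drives lipogenic genes. It read 301, 253 and 217 in WT and 164, 182 and 114 in KO, without overlap, and differed by -0.70 (interval -1.18 to -0.22, adjusted p = 0.529). Srebf1, which encodes the sterol regulatory element-binding protein of fatty acid synthesis, read 156, 110.5 and 107 in WT and 68, 126 and 109 in KO. Its groups overlap, and its difference was -0.28 (interval -0.85 to 0.28, adjusted p = 0.795), against -0.06 without KO replicate 1.

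**Figure D3:**
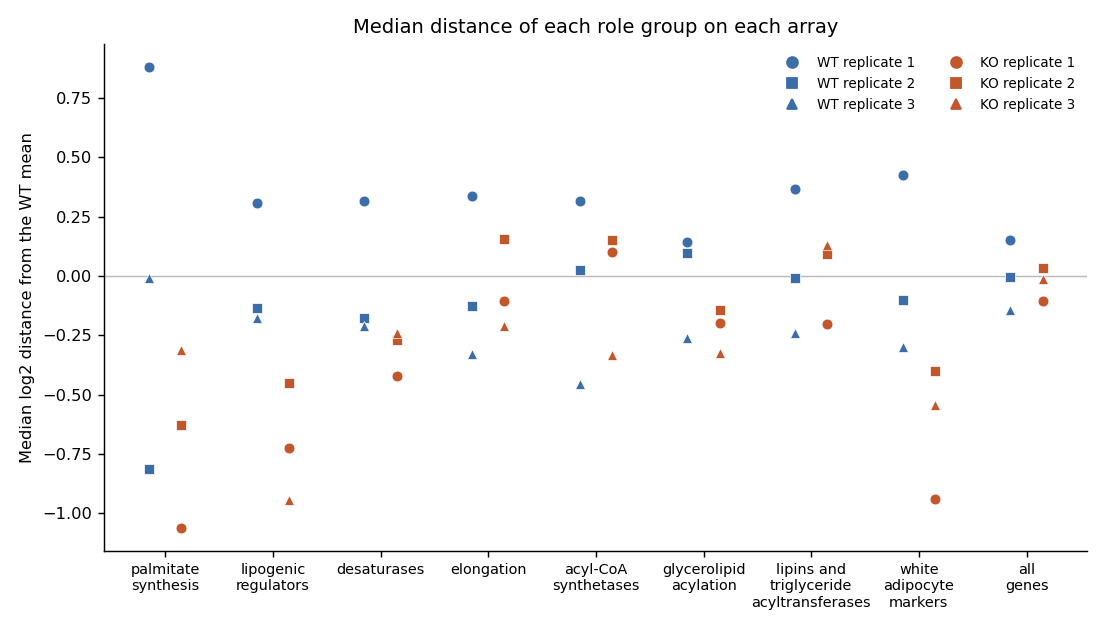
Median distance of each role group's genes from their WT mean on each array (log2 scale), with the white adipocyte markers and all genes beside them. The regulators are the role group whose 3 KO arrays (-0.945 to -0.451) all lie below the 3 WT arrays (-0.175 to 0.308) by a clear gap, the white adipocyte markers also separate (-0.939 to -0.4 in KO, -0.298 to 0.424 in WT), and palmitate synthesis ranges from -0.812 to 0.881 within WT.

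Elongation was divided, with 4 of 8 genes lower by mean difference and a median of -0.04. Hsd17b12, the ketoacyl-CoA reductase of the elongation cycle, read 121, 52.5 and 50.9 in WT and 34.9, 25.1 and 24.8 in KO. The groups do not overlap, and the difference was -0.96 (interval -1.65 to -0.26, adjusted p = 0.53 over all probe sets and 0.166 in the refit), or -0.62 without WT replicate 1. Its second probe set read 77.6, 50.3 and 89 in WT and 30.3, 27.8 and 27.3 in KO and also differed by -0.96. Elovl6, which lengthens palmitate to stearate, read 99.3, 49.2 and 45.3 in WT and 25.3, 42.2 and 39.9 in KO (-0.59, adjusted p = 0.609). The groups do not overlap, though the 2 nearest arrays are 45.3 and 42.2, and without WT replicate 1 the difference was -0.30.

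The other elongation genes gave no such separation. Tecr, the enoyl-CoA reductase of the cycle, differed by -0.31 on its brighter probe set and by 0.36 on the other, which read 808, 636 and 594.5 in WT and 564, 1131 and 1032 in KO. Elovl5, an elongase of polyunsaturated acids, differed by 0.22 and on a second probe set by -0.08, Elovl1, an elongase of very long saturated acids, by 0.06, and Elovl7 by -0.13. Elovl2 and Elovl4, elongases of very long polyunsaturated acids, were dim, with highest arrays of 9.1 and 5.0, and differed by 0.21 and 0.05.

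Of the acyl-CoA synthetases, which activate free fatty acids, 2 of the 3 measured lay lower by mean difference. Acsl5 was 40.1 ± 12.7 in WT and 21.0 ± 16.7 in KO (difference -0.68, interval -1.53 to 0.17, adjusted p = 0.648), and its lowest array was KO replicate 1, at 4.9. Acsl4, which prefers arachidonate, differed by -0.03 and Acsl3, found on lipid droplets, by 0.26. None of the 3 separated the groups.

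At the end of the pathway, 3 of 7 genes lay lower by mean difference, with a median of 0.0404. Dgat2, which esterifies diacylglycerol to triglyceride, read 660, 302 and 345 in WT and 152, 223 and 247 in KO. The groups do not overlap, with a difference of -0.96 (interval -1.71 to -0.20, adjusted p = 0.552 over all probe sets and 0.184 in the refit), and a second probe set gave -0.81. Leaving out WT replicate 1 brought the brighter one to -0.63. Dgat1, which catalyses the same step, read 148, 113 and 85.7 in WT and 75.4, 79.7 and 89.4 in KO, with overlap at a single array, and differed by -0.41 (interval -0.87 to 0.05).

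Lpin1, the phosphatidate phosphatase of muscle and fat that makes diacylglycerol, went the other way on 1 array. It read 724, 599.5 and 380 in WT and 475, 664 and 2009 in KO (difference 0.63, adjusted p = 0.791). KO replicate 3 alone was high, its second probe set read 1883 there, and without that array the difference was 0.03. Lpin2 and Lpin3, its relatives, differed by 0.04 and -0.28, and Mogat1 and Mogat2, which acylate monoacylglycerol, by 0.24 and 0.18. Lpin3 and Mogat2 were dim, with means over the 6 arrays of 10.4 and 6.42.

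Other probe sets mostly bore the same sign. Of the 30 members with more than 1 probe set, 23 had the same sign on the brightest and the next, and of the 22 with both above the median level 19 did, the exceptions being Elovl5, Tecr and Agpat1. Of all 92 probe sets, 16 from 12 genes had the other sign than the brightest of their gene, and 4 of these lay above the median level. The 92 include the brightest probe sets of the 39 members, which cannot differ from themselves. They belong to Acly, Acacb, Thrsp, Scd3, Elovl1, Elovl5, Elovl7, Tecr, Acsl3, Agpat1, Lpin2 and Dgat1. The dim second probe set of Acacb gave -0.13, and another dim one of Thrsp 0.14. A single probe set stood for 9 members, Fasn, Mlxipl, Srebf1 and Agpat2 among them.

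**Figure D4:**
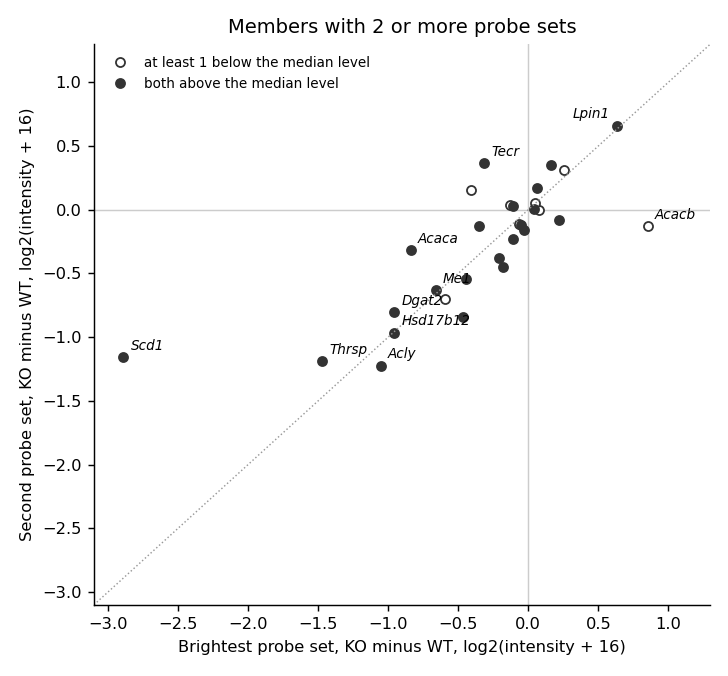
Log2 difference (KO minus WT) of the brightest probe set against that of the next brightest for the 30 members with at least 2, filled where both lie above the median level and with the line of equality dotted. Hsd17b12, Me1 and Lpin1 lie on or near the line, Scd1 gives -2.89 on one and -1.16 on the other, and Tecr and Acacb change sign.

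Related enzymes were compared within each array, where array-wide brightness cancels. The level of such a ratio depends on the probes and has no meaning of its own, so only its difference between arrays is read. The log2 ratio of Scd1 to Scd2 was 3.04, 2.78 and 2.41 in WT and 0.919, -0.198 and 0.172 in KO, a difference of -2.45. The ratio of Elovl6 to Elovl5 was -0.242, -0.624 and -0.406 in WT and -1.43, -1.33 and -0.953 in KO, a difference of -0.813. Both separated the groups, each with an exact two-sided permutation p = 0.1, the smallest that the 20 splits of 3 against 3 allow, and p = 0.2 adjusted over the 4 ratios compared.

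The other ratios did not separate the groups. Dgat2 to Dgat1 gave 2.04, 1.3 and 1.83 in WT and 0.881, 1.32 and 1.32 in KO, a difference of -0.55 (exact permutation p = 0.3, adjusted 0.3). Acacb to Acaca, the oxidation-linked over the lipogenic carboxylase, gave 0.116, 2.70 and 0.453 in WT and 2.86, 2.53 and 2.96 in KO, a difference of 1.69 (exact permutation p = 0.2, adjusted 0.2667). Its WT replicate 2 lay with the KO arrays.

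**Figure D5:**
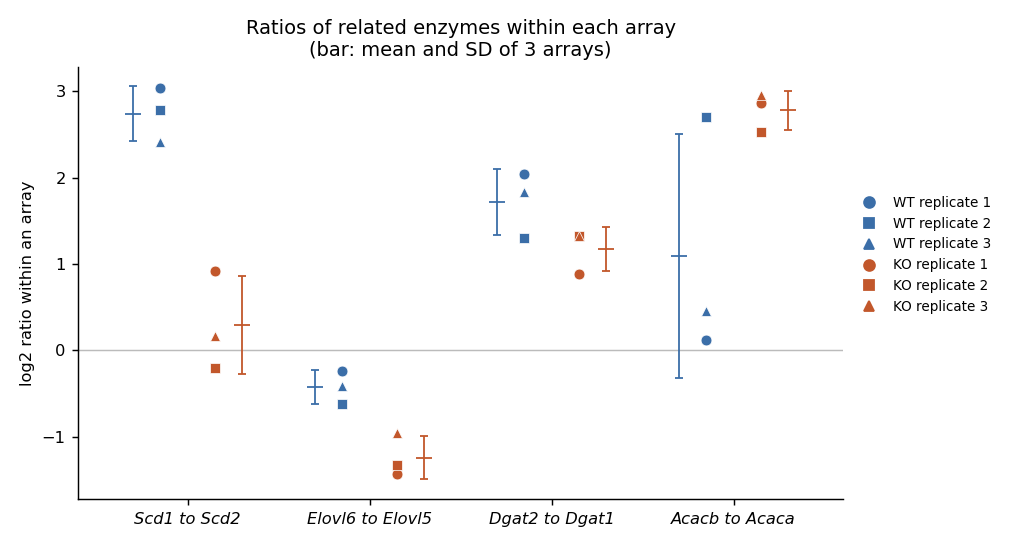
Log2 ratio of 4 pairs of related enzymes within each of the 6 arrays, with the mean and SD of the 3 arrays of a group beside the points. The groups do not overlap for Scd1 to Scd2 and for Elovl6 to Elovl5, and WT replicate 2 (2.70) sits among the KO arrays for Acacb to Acaca.

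Promoters of 4 of the 8 members without overlap are shown, since these genes lay lower together and motifs of lipogenic factors can be looked for in them. The 4 are those with 1 promoter each in the table. Mlxipl and Me1 have 2 each and are not printed, and promoters of Scd1 and Dgat2 were not analysed here. The RefSeq table (GRCm38.p6, a C57BL/6J reference, while the mice were 129SvJ) held promoters of 33 of the 40 members. The 250 bases before the gene's start are printed 5′ to 3′ on the gene's strand, with matches on either strand to TCACNCCAC (the sterol regulatory element), CACGTG (the E-box core of the carbohydrate response element), GGGCGG (the GC box) or CCAAT in capitals. Agpat2 is at chr2:26604418-26604667 (minus strand), Hsd17b12 at chr2:94157910-94158159 (minus), Thrsp at chr7:97417551-97417800 (minus) and Elovl6 at chr3:129532136-129532385 (plus).
Agpat2: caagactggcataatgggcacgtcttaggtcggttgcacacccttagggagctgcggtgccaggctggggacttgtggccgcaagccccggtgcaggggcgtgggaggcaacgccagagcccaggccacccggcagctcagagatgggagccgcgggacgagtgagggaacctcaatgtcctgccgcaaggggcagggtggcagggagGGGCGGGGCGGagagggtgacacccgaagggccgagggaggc
Hsd17b12: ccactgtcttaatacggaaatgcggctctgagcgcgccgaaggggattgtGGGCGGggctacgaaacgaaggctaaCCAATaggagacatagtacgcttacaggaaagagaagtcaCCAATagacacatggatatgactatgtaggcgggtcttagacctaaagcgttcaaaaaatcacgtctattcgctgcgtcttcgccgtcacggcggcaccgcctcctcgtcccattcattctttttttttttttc
Thrsp: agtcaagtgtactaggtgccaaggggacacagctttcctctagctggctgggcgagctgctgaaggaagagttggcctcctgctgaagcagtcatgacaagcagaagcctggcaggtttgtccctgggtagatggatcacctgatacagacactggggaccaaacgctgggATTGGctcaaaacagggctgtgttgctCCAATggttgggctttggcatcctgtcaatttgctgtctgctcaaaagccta
Elovl6: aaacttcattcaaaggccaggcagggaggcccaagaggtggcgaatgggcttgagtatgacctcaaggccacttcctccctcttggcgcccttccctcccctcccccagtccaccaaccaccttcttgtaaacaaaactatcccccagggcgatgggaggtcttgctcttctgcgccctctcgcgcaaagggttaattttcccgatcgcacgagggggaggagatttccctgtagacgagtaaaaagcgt

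The Agpat2 promoter holds 2 overlapping GC boxes, that of Hsd17b12 1 GC box and 2 CCAAT boxes, that of Thrsp 2 CCAAT boxes, and that of Elovl6 no match in this window. None of these 4 holds the searched sterol regulatory element or E-box, while Mlxipl, also lower without overlap, has both among its promoters. Me1 has a GC box and a CCAAT box among its promoters. Over the 45 promoters of members, the sterol element was in 2 (Acsl1 and Mlxipl), or 4.44%, against 1.05% of all 32851 promoters, and the E-box in 3 (Elovl5, Lpin2 and Mlxipl), or 6.67%, against 6.02%. The GC box was in 25, or 55.6%, against 32.7% of all, and CCAAT in 20, or 44.4%, against 33.8%. A match is a run of letters and not a bound site.

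The neighbouring genes of the pathway gave 0 calls by limma over all probe sets. The machinery that regulates these genes through SREBP, LXR and ChREBP had 11 of 19 measured genes lower by mean difference and a median of -0.04. At an unadjusted p under 0.05, 1 lay lower and 1 higher. Mlxip, which encodes MondoA, the relative of ChREBP prominent in muscle, read 169.5, 144 and 128 in WT and 196, 283.5 and 270 in KO, every KO array above every WT array (difference 0.70, adjusted p = 0.524). Mlxip thus lay higher where Mlxipl lay lower. Mid1ip1, the paralog of Thrsp that promotes acetyl-CoA carboxylase polymers, read 156, 105 and 99.4 in WT and 51.7, 77.5 and 78.2 in KO (-0.67, adjusted p = 0.54). Srebf2, the sterol-synthesis relative of Srebf1, differed by -0.39 (adjusted p = 0.588).

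The genes that supply citrate and NADPH had 11 of 13 lower by mean difference and a median of -0.218, with 2 lower and 1 higher at an unadjusted p under 0.05. Tkt, the transketolase of the pentose phosphate pathway, read 1050, 232 and 522 in WT and 88.3, 116 and 150 in KO, the WT order seen for Fasn. It differed by -1.99, 3.97-fold lower, and passed in the refit (adjusted p = 0.0409) but not over all probe sets (0.524). Taldo1, the transaldolase of the same pathway, differed by -0.56 (adjusted p = 0.573). Nnt, the mitochondrial transhydrogenase that makes NADPH, read 184, 184 and 121 in WT and 219, 471 and 288 in KO, higher without overlap (0.89, adjusted p = 0.552).

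The remaining enzymes of fatty acid synthesis, elongation and activation had 11 of 18 lower by mean difference and a median of -0.02, with 3 lower and 3 higher at an unadjusted p under 0.05. Acss1, the mitochondrial acetate-activating enzyme, read 83.5, 92.6 and 43.2 in WT and 115, 517 and 770 in KO, higher without overlap (2.14, adjusted p = 0.529 over all probe sets and 0.0677 in the refit). Acot1, a cytosolic acyl-CoA thioesterase and a target of PPAR alpha, read 6.4, 6.8 and 6 in WT and 12.2, 109.5 and 169 in KO, higher without overlap (1.96, adjusted p = 0.552). In both genes KO replicate 1 lay nearest to WT. Acsf2, an acyl-CoA synthetase of mitochondria, differed by -0.89 (adjusted p = 0.562).

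The remaining glycerolipid enzymes had 15 of 20 lower by mean difference and a median of -0.224, with 2 lower and 0 higher at an unadjusted p under 0.05. Gpd1, which makes glycerol phosphate from a glycolytic intermediate, read 910, 595 and 556 in WT and 428, 373 and 275 in KO, lower without overlap (-0.90, adjusted p = 0.524). Bscl2, the seipin of lipid droplet formation, differed by -0.65 (adjusted p = 0.58) and Lclat1, a lysocardiolipin acyltransferase, by -0.33 (adjusted p = 0.625).

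The phospholipid branch had 8 of 19 lower by mean difference and a median of 0.0423, with 1 lower and 2 higher at an unadjusted p under 0.05. Chkb, the choline kinase of muscle, differed by 0.83 (adjusted p = 0.563), Cds2, which makes CDP-diacylglycerol, by 0.42 (adjusted p = 0.563) and Ptdss1, a phosphatidylserine synthase, by -0.46 (adjusted p = 0.581).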

How the data were processed

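Muscle RNA was measured on 6 arrays. The table deposited by the authors holds intensities on a linear scale, per the file headers and values. For their background correction and scaling, the sources used here give no method. Unequal array medians show that medians were not equalized. RNA was isolated with TriPure and biotin-labelled by the manufacturer's protocol, per the labels' protocols. Of 45101 probe sets, 64 manufacturer's controls were left out. An offset of 16 was added before log2, with no further normalization, so folds of dim probe sets are understated.

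Two-sided tests used limma 3.58.1 (lmFit, then eBayes; R 4.3.3), and p-values were adjusted by Benjamini-Hochberg across the 45037 probe sets and called at 0.05. Adjusted p-values are from limma, except those of the ratios, which are exact permutation p-values adjusted by Benjamini-Hochberg over the ratios. Intervals are at 95%. Precision is limited by the number of arrays. The labels call the arrays biological replicates without saying more, so p-values measure the spread between these samples. The platform annotation gave 1 symbol for 34945 probe sets and several, left unnamed, for 932, and 34741 of the first matched a RefSeq gene. The table had 0 unused sample columns. The script was tested on simulated data.

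Members, pathway lists and markers were chosen with earlier results of these data known, so they got no set test. Every measured member is named. All 6 values are given for members without overlap, the 10 lowest p-values and a fixed set of 9, except Acsl1, which was not analysed here. The fixed set was Srebf1, Fasn, Scd1, Scd2, Dgat1, Dgat2, Lpin1, Gpam and Acsl1. The 3 lowest p-values of each pathway list are named. Alternatives were quantile normalization, median centring, offsets of 1 and 64, the refit to bright probe sets, a trended and robust variance, a replicate block, probe sets averaged per gene and each array left out.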

Additional observations from a re-analysis of the deposited data

How the results depend on the processing

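Over all probe sets, 4 passed the threshold. With quantile normalization 9 passed, with median centring 11, with a trended and robust variance 15, with an offset of 64 1, with the bright probe sets alone 77, with probe sets averaged per gene 1, and without each array in turn 1 to 6. Members passing went from 0 to 1 with median centring and with the trended and robust variance (Scd1 both times) and to 2 with the bright probe sets alone. In that refit, members passing went from 2 to 1 with an offset of 1 and to 0 with an offset of 64, and ranged from 1 to 7 without each array, with 7 without KO replicate 3, 6 without KO replicate 1, 4 without WT replicate 2 and 1, Scd1, without KO replicate 2 or either of WT replicates 1 and 3. The prior degrees of freedom behind that refit were 223 without KO replicate 3 and 19.1 without KO replicate 1, against 11.8 with all arrays, and 3.9 with an offset of 64.

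Members lower without overlap, 8 with all arrays, ranged from 8 to 13 without each array, and members higher without overlap, 0 with all arrays, from 0 to 3, with 2 after quantile normalization and 1 after median centring. Fewer arrays also raise these shares over all genes, to 19.1% lower without WT replicate 3. The median member difference ranged from -0.346 to -0.109 and stayed below 0, and the 4 ratios kept their sign. Of 542 member differences recomputed, 23 changed sign, from 14 members, the largest of them 0.315 in size with all arrays, and 25 members kept their sign. The 542 include the trended variance, the replicate block and the refit, which by construction cannot change a difference. With an offset of 1 Fads2 was 0.0337, and with probe sets averaged per gene Elovl7 was 0.00701, Tecr 0.0243 and Lpin2 -0.0299. Without each array the differences ranged from -0.346 to 0.0628 for Acss2, -0.179 to 0.256 for Scd3, -0.376 to 0.257 for Fads2, -0.241 to 0.0874 for Fads3, -0.15 to 0.222 for Elovl1, -0.0118 to 0.107 for Elovl4, -0.364 to 0.0871 for Elovl7, -0.03 to 0.411 for Acsl3, -0.254 to 0.187 for Acsl4, -0.228 to 0.0441 for Agpat1, -0.00295 to 0.242 for Agpat3, -0.336 to 0.0831 for Agpat5 and -0.194 to 0.225 for Lpin2.

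With the replicate number as a block 0 probe sets passed over all of them and the same 2 members passed in the refit. Deviations of same-numbered samples over all probe sets correlated at -0.0567, 0.0263 and -0.0569. With only 3 arrays in each group, such values cannot decide whether the numbers pair the mice. Signal limits the 4 members below the median level of 12.2, and also members just above it, such as Mogat1 (mean 12.5) and Scd3 (15.2).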
